A study of Mus musculus with 12 samples.

Results

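A resting B cell is held in its identity by a small network of transcription factors, and 10 genes of that network were followed here: Pax5, Ebf1, Tcf3, Ikzf1, Ikzf3, Spib, Pou2f2, Pou2af1, Bach2 and Bcl6. They were chosen by name, with earlier results of these data known, and were found by matching their Ensembl identifiers to gene symbols in a table of 37991 genes. The symbols matched 11 rows, since Ebf1 also names a short annotated pseudogene (ENSMUSG00000078561) that lies wholly inside an Ebf1 exon. That row had 0 counts in all 12 samples and was left aside. The other 10 rows, 1 for each factor, all passed the filter on low counts.

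RNA was sequenced from resting B cells of mouse spleen, either directly after purification or after 3 h with anti-IgM, which engages the B cell receptor (BCR), and IL-4. The Runx1 c-k/o mice carry the CD23-iCre transgene and Runx1 alleles with loxP sites around exon 4, and the control mice (Cre-only) carry the CD23-iCre transgene without the floxed alleles. Both genotypes therefore express the same Cre, which is first active at the transitional stage of B cell development, so Runx1 was intact earlier. All mice were 8 weeks old, of C57B6 background by the study's methods. Each of the 4 groups had 3 replicates, and whether a replicate was 1 mouse or several is not given in the sources used here, so p-values measure the spread between these samples. No cells cultured for 3 h without the stimulus were among the samples, so culture and stimulus cannot be told apart.

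The factors act in layers. Tcf3 (the E2A proteins), Ebf1 and Pax5 commit precursors to the B lineage and then hold B cell genes open. Ikzf1 (Ikaros) and Ikzf3 (Aiolos) are zinc finger proteins of 1 family that set how a B cell answers its receptor, Spib is an Ets factor close to PU.1, and Pou2f2 (OCT2) binds the octamer motif with its coactivator Pou2af1 (OBF1 or BOB.1). Bach2 and Bcl6 are repressors that hold back the plasma cell programme, whose regulator is Prdm1 (Blimp-1).

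The libraries held 14442251 to 23641552 counted reads each, and 3 counts, taken as the floor, corresponded to 0.127 to 0.208 CPM (counts relative to library size), a floor for counting error only. Each factor lay far above it, the lowest value being 22.1 normalized CPM for Bcl6. Of the B cell markers, 10 of 11 were measured and their summed level was 27088 to 28063 normalized CPM at rest and 15656 to 16280 at 3 h in Cre-only cells, and 29345 to 33205 and 16212 to 20671 with Runx1 c-k/o. Cd3e, Cd3d, Cd3g and Thy1 of T cells had group means of at most 0.527 normalized CPM, and no gene of the marker lists was at 0 in all samples. Myeloid markers (8 of 9 tested) summed to 271 to 331 at rest and 28.0 to 37.7 at 3 h in Cre-only cells, and to 237 to 462 and 31.4 to 61.8 in Runx1 c-k/o cells. T cell markers (4 of 10 tested) summed to 37.4 to 43.9 at rest and 66.5 to 73.2 at 3 h in Cre-only cells, and to 31.6 to 44.0 and 67.2 to 86.3 with Runx1 c-k/o, most of it from Lck, whose Cre-only means were 34.9 and 65.2. NK cell markers (4 of 5 tested) summed to 8.48 to 12.2 and then 1.96 to 5.18 in Cre-only cells, and to 8.21 to 9.55 and 1.94 to 4.63 with Runx1 c-k/o. The sums of plasmacytoid dendritic cell markers (4 of 4 tested) were 208 to 228 and 142 to 154, and 197 to 223 and 137 to 146. Those of plasma cell markers (6 of 6 tested, Prdm1 and Irf4 among them) were 1699 to 1809 and 2037 to 2261, and 1708 to 1871 and 2160 to 2415. The B cell, myeloid, NK cell and plasmacytoid dendritic cell sums were thus lower at 3 h in both genotypes, as 9 factors were, and the T cell and plasma cell sums higher, as Pou2af1 was, all without overlap. Within a list the genes did not all follow its sum: in each genotype 1 T cell marker was called higher (Lck) and 1 lower (Cd4), and 2 plasma cell markers were higher and 3 lower. With genotype, the B cell sums at rest did not overlap and were higher in Runx1 c-k/o cells. Erythroid markers (4 of 5 tested) summed to 36.3 to 254 in Cre-only and 246 to 410 in c-k/o cells at rest, and to 12.5 to 137 and 115 to 203 at 3 h. Germinal centre markers (5 of 5 tested) were low, summing to 9.78 to 20.4 against 7.32 to 8.21 at rest, without overlap, and to 13.4 to 20.6 against 11.6 to 16.7 at 3 h, where Mybl1 was called lower in c-k/o cells (log2 fold change -1.60, adjusted p from edgeR 0.0257). The sums of NK cell, plasmacytoid dendritic cell and plasma cell markers overlapped between genotypes at both times, but Ccr9 of the dendritic cell list was called lower in c-k/o cells at 3 h (log2 fold change -0.76, adjusted p from edgeR 0.0257), and Sdc1 of the plasma cell list at rest. The part of these markers in the results was not tested. In bulk RNA, fewer cells of a type and less RNA per cell cannot be told apart. Runx1 itself does not check the genotype here, because counts over the whole gene include exons outside the deleted part. At rest it ranged from 81.8 to 86.7 normalized CPM in Cre-only cells, and from 95.7 to 102.7 with Runx1 c-k/o. At 3 h the ranges were 34.9 to 38.5 and 47.3 to 74.5.

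Before the results, 2 of the 12 libraries have to be set apart: among the Runx1 c-k/o samples, replicate 2 at rest and replicate 1 at 3 h. Against the other replicates of their groups their counts gave a chi-square per degree of freedom of 29.4 to 80.6, whereas every other pair of replicates gave 2.96 to 13.4. Both were low for long genes. Genes with over 8 kb of exon deviated by a median of -0.24 (log2) in the resting and -0.52 in the 3-h library, and genes under 2 kb by 0.29 and 0.30. The Cre-only libraries stayed within 0.03 of 0 in the class over 8 kb. Among the 3-h samples with Runx1 c-k/o, replicate 3 deviated the other way, by 0.34 over 8 kb and -0.24 under 2 kb, against a mean that includes the library set apart. Its pair with replicate 2 gave the 13.4, whereas Cre-only pairs reached 5.85 at most, and leaving it out raised the genes called between genotypes at 3 h from 375 to 617. Among the factors, Ikzf3 and Bach2, whose exons add up to 8754 and 10427 bases, were furthest below their partners. Ikzf3 was lower by 0.79 and 0.97 (log2) in these libraries, and Bach2 by 0.67 and 0.95. Ebf1, with 9756 bases, deviated by -0.26 and -0.30. Pou2f2, with 2690 bases, deviated by -0.33 and -0.57, where genes of 2 to 4 kb had medians of 0.15 and 0.13. The part of exon length in the values of the factors was not tested. The fold changes that moved most with the libraries set apart are given also without both of them, a choice made after the data were seen.

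**Figure D1:**
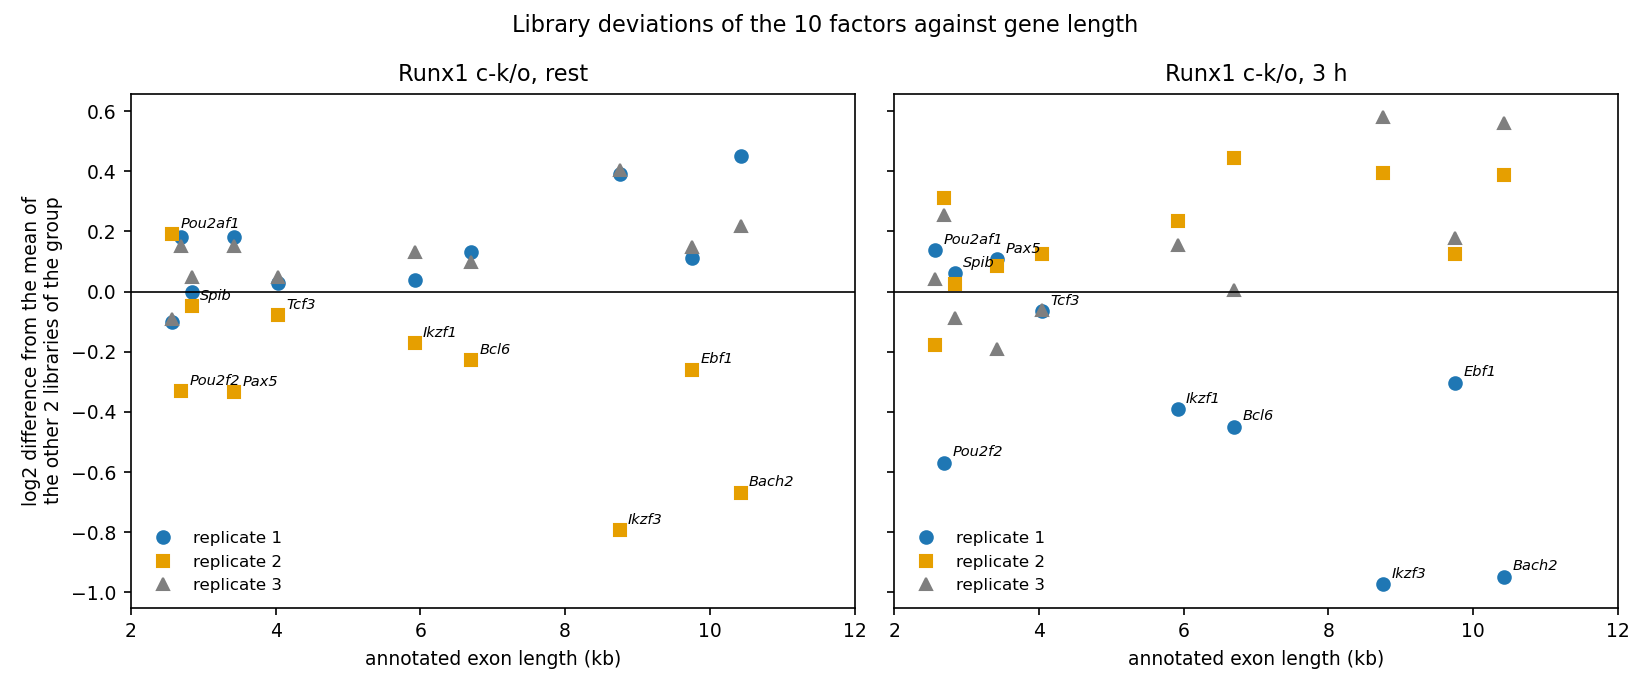
Log2 difference of each of the 10 factors from the mean of the other 2 libraries of its group (vertical axis) against annotated exon length in kb (horizontal axis), in resting (left) and 3-h (right) Runx1 c-k/o cells, with 1 symbol per replicate. Gene names stand beside the library set apart in each panel, where Ikzf3 and Bach2 lie lowest, at -0.79 and -0.67 at rest and -0.97 and -0.95 at 3 h.

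Promoter sequence was available from the RefSeq table (GRCm38.p6) for 9 of the 10 factors, in 12 windows, and each window matched mm9 at a single place. Ikzf3 had no entry. The 250 bases before the start site are shown for Pou2f2 and Pou2af1, a factor and its coactivator that moved in opposite directions, and for Bcl6, a factor with one of the largest falls. They are Pou2f2, chr7:25917480-25917729 on the minus strand, Pou2af1, chr9:51021545-51021794 on the plus strand, and Bcl6, chr16:23988939-23989188 on the minus strand, all in mm9 and written 5′ to 3′. Capitals mark matches to any of 7 short motifs searched on both strands.
Pou2f2: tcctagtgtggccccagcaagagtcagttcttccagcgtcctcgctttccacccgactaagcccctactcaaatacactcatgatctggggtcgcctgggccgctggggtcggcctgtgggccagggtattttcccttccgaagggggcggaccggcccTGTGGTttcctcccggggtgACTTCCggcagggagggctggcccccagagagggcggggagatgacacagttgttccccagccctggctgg
Pou2af1: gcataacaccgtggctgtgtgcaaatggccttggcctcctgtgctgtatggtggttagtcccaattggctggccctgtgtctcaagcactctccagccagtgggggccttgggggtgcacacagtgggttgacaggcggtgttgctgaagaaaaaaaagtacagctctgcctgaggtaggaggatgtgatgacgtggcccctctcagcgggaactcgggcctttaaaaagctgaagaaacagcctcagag
Bcl6: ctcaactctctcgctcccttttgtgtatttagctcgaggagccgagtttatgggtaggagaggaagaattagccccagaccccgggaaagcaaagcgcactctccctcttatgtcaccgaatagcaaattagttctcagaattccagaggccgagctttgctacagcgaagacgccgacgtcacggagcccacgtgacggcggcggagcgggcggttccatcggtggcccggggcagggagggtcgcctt

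The RUNX letters TGTGGT were found in the windows of Pou2f2, starting at -91 from the start site, and Ebf1, at -12. These letters stand in 14.05% of 32851 mouse promoter windows of the same length. The Ets letters GGAAGT were found in Pou2f2, Ebf1 and Tcf3, and in 19.7% of all windows. The Ikaros letters TGGGAA were found in Ebf1 and in 21.6% of windows. An octamer (ATGCAAAT, in 1.60% of windows), the E-box CAGGTG (17.2%), the EBF palindrome (0.779%) and the AP-1 letters TGACTCA (4.46%) were in no window of the 9 factors. The Ikaros and Ets letters share the run GGAA, but no matches overlapped in these windows. A match describes letters only.

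To see how the factors answered BCR engagement, 3-h cells were compared with resting cells within each genotype. After 3 h, 9 of the 10 factors were lower and Pou2af1 was higher in both genotypes. All 10 were called in both, that is, their adjusted p in the quasi-likelihood test of edgeR was under 0.05. Activation changed most genes: 75.0% of 13538 tested genes were called in Cre-only cells (38.6% higher, 36.4% lower) and 74.3% in Runx1 c-k/o cells (37.7% higher, 36.6% lower). The number of factors called has to be read against that share. The samples of both times did not overlap for 10 factors in Cre-only cells and for 9 with Runx1 c-k/o, beside 84.4% and 72.8% of all tested genes. The median log2 fold change of the 10 was -1.45 in Cre-only cells and -1.50 with Runx1 c-k/o, beside medians of 0.03 and 0.00 over all tested genes. Without both libraries set apart all 10 factors were still called with Runx1 c-k/o, at log2 fold changes from -2.15 for Pax5 to 0.90 for Pou2af1. The values are shares of counted reads, so a change in the amount of RNA per cell is not seen in them.

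**Figure D2:**
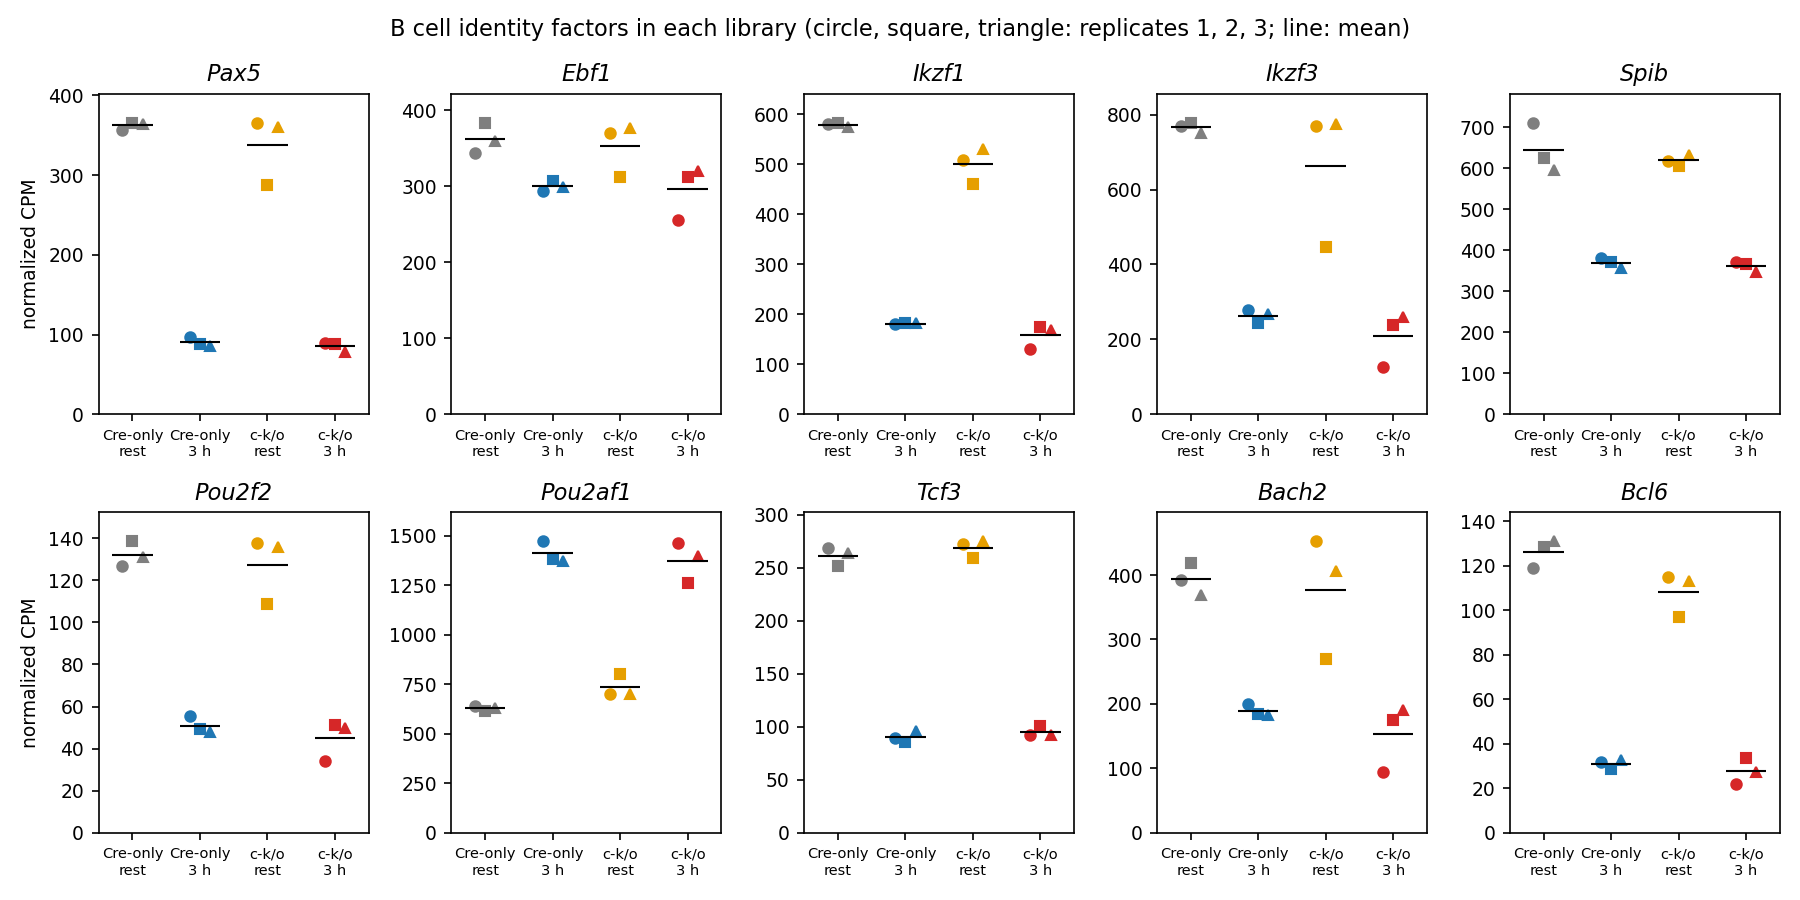
Normalized CPM (vertical axes, from 0) of each factor in the 12 libraries, with both times and genotypes side by side, a symbol for each replicate and a line at the group mean. The 3-h values lie below the resting values of the same genotype for 9 factors, except that Ebf1 overlaps in Runx1 c-k/o cells, and Pou2af1 rises in both genotypes.

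Pax5, which holds B cell commitment, showed one of the largest falls of the 10. Its 3 resting Cre-only samples had 357.0, 365.5 and 364.1 normalized CPM, and its 3-h samples had 97.1, 87.9 and 85.9. Runx1 c-k/o cells had 365.7, 288.1 and 360.4 at rest and 89.5, 88.7 and 78.0 at 3 h. The lowest resting value came from the library set apart, and it was still far above the 3-h values. The fall was 4.01-fold in Cre-only cells (log2 fold change -2.0, SE 0.11, adjusted p = 2.08e-08) and 3.96-fold in Runx1 c-k/o cells (-1.99, SE 0.11, adjusted p = 3.21e-08). An antisense gene, Gm12462, shares 125 exonic bases with Pax5, and the strand setting of the counting is not given in the sources used here.

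Ebf1, the pioneer factor of the B lineage, changed least. Its resting Cre-only values were 344.0, 383.5 and 359.8 normalized CPM and its 3-h values 293.8, 307.4 and 299.2. The Runx1 c-k/o values were 369.9, 311.7 and 376.4 at rest and 255.9, 312.0 and 319.4 at 3 h. The Cre-only groups did not overlap and the Runx1 c-k/o groups did. Ebf1 was 1.21-fold lower in Cre-only cells (log2 fold change -0.27, SE 0.11, adjusted p = 0.0352) and 1.19-fold lower in Runx1 c-k/o cells (-0.25, SE 0.11, adjusted p = 0.0476). These calls were weak, and the Runx1 c-k/o call was lost in 9 of 17 alternatives. Among these were no filter on low counts (adjusted p = 0.0521) and a fit of only the groups compared (0.144). With replicate numbers as a block within each genotype the adjusted p were 0.0807 and 0.0978. Leaving out 1 library ended the call for each Cre-only library other than replicate 1 at rest (adjusted p up to 0.126), and for replicates 1 and 3 at rest and 1 and 2 at 3 h of Runx1 c-k/o cells (up to 0.160). With 1 factor of unwanted variation the sign turned, to 0.12 and 0.15, and neither was called (adjusted p = 0.300 and 0.197).

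Tcf3, which encodes the E2A proteins, fell and varied little among replicates. It had 268.6, 251.4 and 263.5 normalized CPM at rest and 89.5, 85.1 and 95.9 at 3 h in Cre-only cells. With Runx1 c-k/o they were 272.5, 259.1 and 274.9, and then 92.0, 100.4 and 92.2. All resting samples of both genotypes lay above 250 and all 3-h samples at or below 100.4. The fall was 2.90-fold in Cre-only cells (log2 fold change -1.53, SE 0.08, adjusted p = 1.75e-08) and 2.83-fold in Runx1 c-k/o cells (-1.50, SE 0.08, adjusted p = 2.82e-08).

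Ikzf1 and Ikzf3, the Ikaros family members, fell together. Ikzf1 had 579.1, 582.8 and 575.0 normalized CPM in resting and 180.8, 181.5 and 181.9 in 3-h Cre-only cells. Runx1 c-k/o samples gave 508.0, 460.8 and 529.9, and then 130.5, 174.3 and 168.1. The replicates of Cre-only cells were close, and each Runx1 c-k/o sample lay below each Cre-only sample of the same time. Ikzf1 fell 3.19-fold in Cre-only cells (log2 fold change -1.67, SE 0.11, adjusted p = 6.74e-08) and 3.17-fold in Runx1 c-k/o cells (-1.66, SE 0.11, adjusted p = 9.18e-08).

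Ikzf3 had 770.8, 778.8 and 751.1 normalized CPM in resting and 278.5, 243.7 and 267.1 in 3-h Cre-only cells. Its Runx1 c-k/o values were 770.1, 445.7 and 775.0 at rest and 126.7, 238.5 and 260.1 at 3 h. The values 445.7 and 126.7 are those of the libraries set apart, and the other 4 lay within or near the Cre-only range. The fall was 2.91-fold in Cre-only cells (log2 fold change -1.54, SE 0.25, adjusted p = 0.000122) and 3.18-fold in Runx1 c-k/o cells (-1.67, SE 0.25, adjusted p = 6.80e-05). Without both libraries the Runx1 c-k/o value was -1.66. With 1 factor of unwanted variation the falls were much smaller, -0.31 (adjusted p = 0.0153) and -0.40 (adjusted p = 0.00435).

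Spib, an Ets factor of B cells, was lowered by less than 2-fold. Its values were 710.9, 624.8 and 595.0 normalized CPM in resting and 380.1, 370.7 and 355.6 in 3-h Cre-only cells. Runx1 c-k/o samples had 618.4, 605.1 and 632.4, and then 371.9, 365.9 and 347.4. The resting and 3-h groups were far apart in both genotypes. Spib fell 1.74-fold in Cre-only cells (log2 fold change -0.80, SE 0.09, adjusted p = 4.85e-06) and 1.71-fold in Runx1 c-k/o cells (-0.77, SE 0.09, adjusted p = 7.12e-06).

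Pou2f2 and Pou2af1 act together on octamer promoters, yet their transcripts moved apart. Pou2f2, the DNA-binding factor, had 126.7, 138.6 and 130.8 normalized CPM in resting and 55.3, 49.5 and 47.7 in 3-h Cre-only cells. Its Runx1 c-k/o samples had 137.6, 108.6 and 135.7, and then 34.1, 51.3 and 50.0. Its groups did not overlap, and the libraries set apart were again lowest. Pou2f2 fell 2.59-fold in Cre-only cells (log2 fold change -1.38, SE 0.15, adjusted p = 3.18e-06) and 2.82-fold in Runx1 c-k/o cells (-1.50, SE 0.15, adjusted p = 1.80e-06), and the latter was -1.46 without both libraries. With 1 factor of unwanted variation these became -0.73 and -0.84, both still called.

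Pou2af1, the coactivator, had 640.9, 617.1 and 631.7 normalized CPM in resting and 1474, 1385 and 1375 in 3-h Cre-only cells. Runx1 c-k/o cells gave 700.1, 800.6 and 703.2, and then 1462, 1263 and 1398. The 3-h samples of both genotypes lay well above all resting samples. The rise was 2.24-fold in Cre-only cells (log2 fold change 1.16, SE 0.10, adjusted p = 4.00e-07) and 1.87-fold in Runx1 c-k/o cells (0.90, SE 0.10, adjusted p = 3.63e-06).

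Of the repressors of the plasma cell programme, Bach2 had 392.2, 418.6 and 369.7 normalized CPM in resting and 200.1, 183.8 and 183.2 in 3-h Cre-only cells. The Runx1 c-k/o samples had 452.6, 269.9 and 406.5 at rest and 94.5, 175.3 and 189.8 at 3 h. The values 269.9 and 94.5 are from the libraries set apart. Bach2 fell 2.08-fold in Cre-only cells (log2 fold change -1.06, SE 0.23, adjusted p = 0.00124) and 2.46-fold in Runx1 c-k/o cells (-1.30, SE 0.23, adjusted p = 0.000289), and the latter was -1.26 without both libraries. The fall was called in 16 of 17 alternatives in each genotype, among them a factor of unwanted variation centred within each group. It was not called with 1 such factor that was not centred. The log2 fold changes were then 0.08 (adjusted p = 0.565) and -0.13 (adjusted p = 0.349). That factor, computed from replicate differences, also separated the times, lying between -0.11 and -0.02 in resting and between -1.78 and -1.69 in 3-h Cre-only libraries (arbitrary units). It also separated the libraries set apart, at -1.07 against -0.09 and -0.08 at rest and -3.07 against -1.72 and -1.67 at 3 h in Runx1 c-k/o cells, and which of these ended the Bach2 call was not tested. The antisense gene BC024582 shares 537 exonic bases with Bach2.

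Bcl6, the germinal centre repressor, had 118.9, 128.5 and 131.0 normalized CPM in resting and 31.7, 28.7 and 32.7 in 3-h Cre-only cells. Runx1 c-k/o cells showed 114.8, 97.1 and 112.9, and then 22.1, 33.4 and 27.3. All 3-h samples lay at or below 33.4, against a resting Cre-only mean of 126.1. Bcl6 fell 4.06-fold in Cre-only cells (log2 fold change -2.02, SE 0.13, adjusted p = 6.97e-08) and 3.93-fold in Runx1 c-k/o cells (-1.97, SE 0.13, adjusted p = 1.06e-07).

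**Figure D3:**
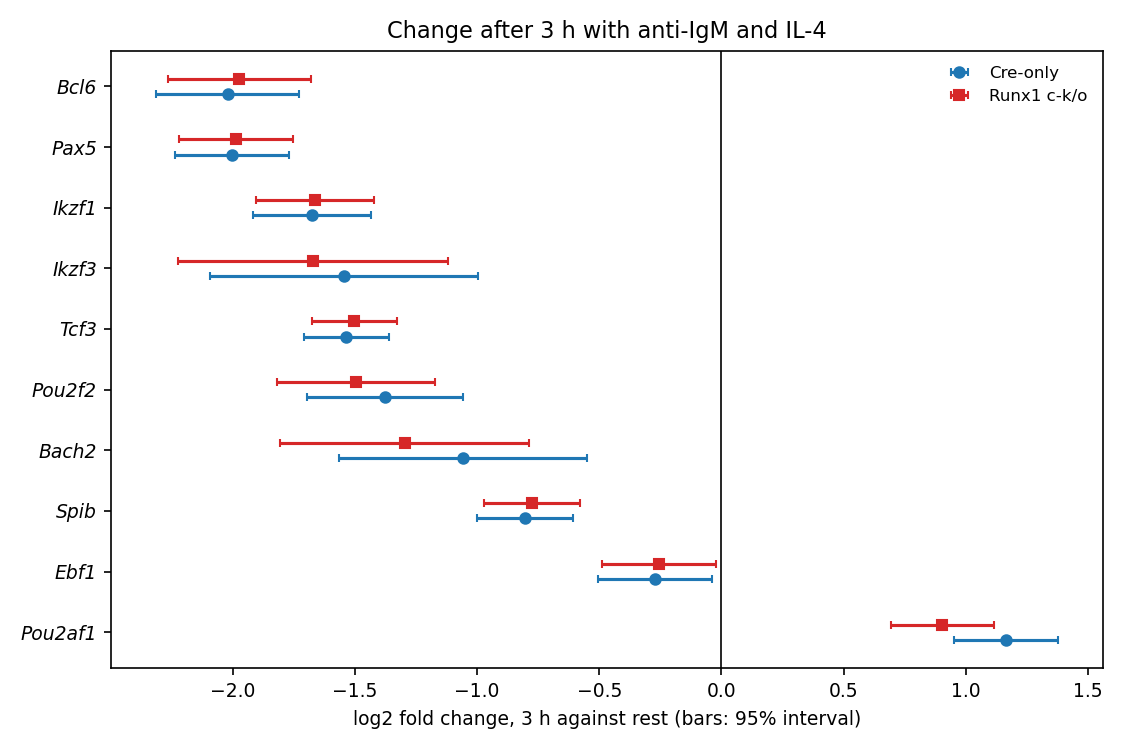
Log2 fold change of each factor at 3 h against rest (horizontal axis) in Cre-only (circles) and Runx1 c-k/o cells (squares), with 95% intervals of the edgeR fit. The values run from -2.02 for Bcl6 to 1.16 for Pou2af1 in Cre-only cells, and the intervals of both genotypes overlap for each factor.

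To ask whether the answer to activation differed between genotypes, the interaction was tested for each factor. None of the 10 was called by edgeR or by DESeq2, and none had an unadjusted p under 0.05 in edgeR, where 0.0813% of all tested genes were called and 686 of 13538 had such an unadjusted p. The differences, Runx1 c-k/o change minus Cre-only change, ran from -0.26 for Pou2af1 (log2, 95% interval -0.56 to 0.04) to 0.05 for Bcl6 (-0.35 to 0.45). For Pax5 the difference was 0.02 (-0.30 to 0.34) and for Tcf3 0.03 (-0.21 to 0.27), so a difference above 0.34 in size lay outside both intervals. For Ikzf3 (-0.13, interval -0.89 to 0.63) and Bach2 (-0.24, interval -0.95 to 0.47) the intervals were too wide for such a statement. Without both libraries set apart these were -0.07 and -0.16, and the differences of the 10 factors ran from -0.22 for Pou2af1 to 0.13 for Bcl6.

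The effect of Runx1 inactivation on the factors was read from the genotype comparison at each time. At rest none of the 10 was called by edgeR or by DESeq2 (1.49% of all tested genes were called by edgeR), and only Pou2af1 had an unadjusted p under 0.05, as did 1496 of the 13538 tested genes. Its Runx1 c-k/o samples all lay above the Cre-only samples, with a log2 fold change of 0.22 (95% interval 0.01 to 0.43, unadjusted p from edgeR 0.0402, adjusted p = 0.421). Without both libraries set apart it was 0.16 (adjusted p = 0.172). Ikzf1 and Bcl6 lay below the Cre-only samples in all Runx1 c-k/o samples, with log2 fold changes of -0.21 (-0.45 to 0.02) and -0.22 (-0.50 to 0.06), and without both libraries they were at -0.15 (adjusted p = 0.130) and -0.14 (adjusted p = 0.413). The germinal centre marker sums given above were likewise below those of Cre-only cells in each of these samples. Groups did not overlap for 3 factors, 1 above and 2 below, beside 23.7% of all tested genes.

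For the other factors at rest the groups overlapped. Differences were -0.10 for Pax5 (log2, 95% interval -0.32 to 0.13), -0.04 for Ebf1 (-0.27 to 0.19), 0.04 for Tcf3 (-0.13 to 0.21), -0.06 for Spib (-0.25 to 0.14) and -0.05 for Pou2f2 (-0.36 to 0.26). A change of 1.5-fold lies outside each of these intervals. For Ikzf3 the difference was -0.21 (-0.74 to 0.33) and for Bach2 -0.06 (-0.57 to 0.44), and without both libraries set apart they were 0.01 and 0.13.

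At 3 h again none was called by edgeR or by DESeq2 (2.77% of all tested genes were called by edgeR), and none had an unadjusted p under 0.05 in edgeR, as 2194 of 13538 tested genes did. Ikzf1 was the only factor whose groups did not overlap (21.8% of all tested genes did not), at -0.20 (log2, 95% interval -0.44 to 0.03, adjusted p = 0.369). It was -0.06 without both libraries (adjusted p = 0.608). The estimates furthest from 0 were -0.34 for Ikzf3 (-0.87 to 0.20) and -0.30 for Bach2 (-0.81 to 0.20). Both rested on replicate 1: without both libraries they were -0.06 and -0.03. Pou2f2 likewise went from -0.17 (-0.49 to 0.15) to 0.01, and Bcl6 from -0.17 (-0.46 to 0.12) to -0.02.

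The remaining 3-h differences were -0.08 for Pax5 (log2, -0.31 to 0.15), -0.02 for Ebf1 (-0.25 to 0.21), 0.07 for Tcf3 (-0.10 to 0.24), -0.03 for Spib (-0.22 to 0.17) and -0.04 for Pou2af1 (-0.25 to 0.17). When a factor of unwanted variation was centred within each group, an alternative chosen after the data were seen, 4 factors were called at each time. At rest they were Ikzf1 (-0.21, adjusted p = 0.0129), Ikzf3 (-0.25, adjusted p = 0.00995), Pou2af1 (0.22, adjusted p = 0.0210) and Bcl6 (-0.22, adjusted p = 0.0493). At 3 h they were Ikzf1 (-0.21, adjusted p = 0.00745), Ikzf3 (-0.40, adjusted p = 0.000223), Pou2f2 (-0.20, adjusted p = 0.0339) and Bach2 (-0.37, adjusted p = 0.00117). For Ikzf3 the main estimates had been -0.21 at rest and -0.34 at 3 h, each with an SE of 0.25. With the centred factor both SE were 0.06. Why these calls were gained was not tested. Without both libraries set apart Ikzf3 was at 0.01 at rest, and the 3-h values of the 4 factors called at 3 h lay between -0.06 and 0.01. Ikzf1, Pou2af1 and Bcl6 at rest still lay at -0.15, 0.16 and -0.14.

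**Figure D4:**
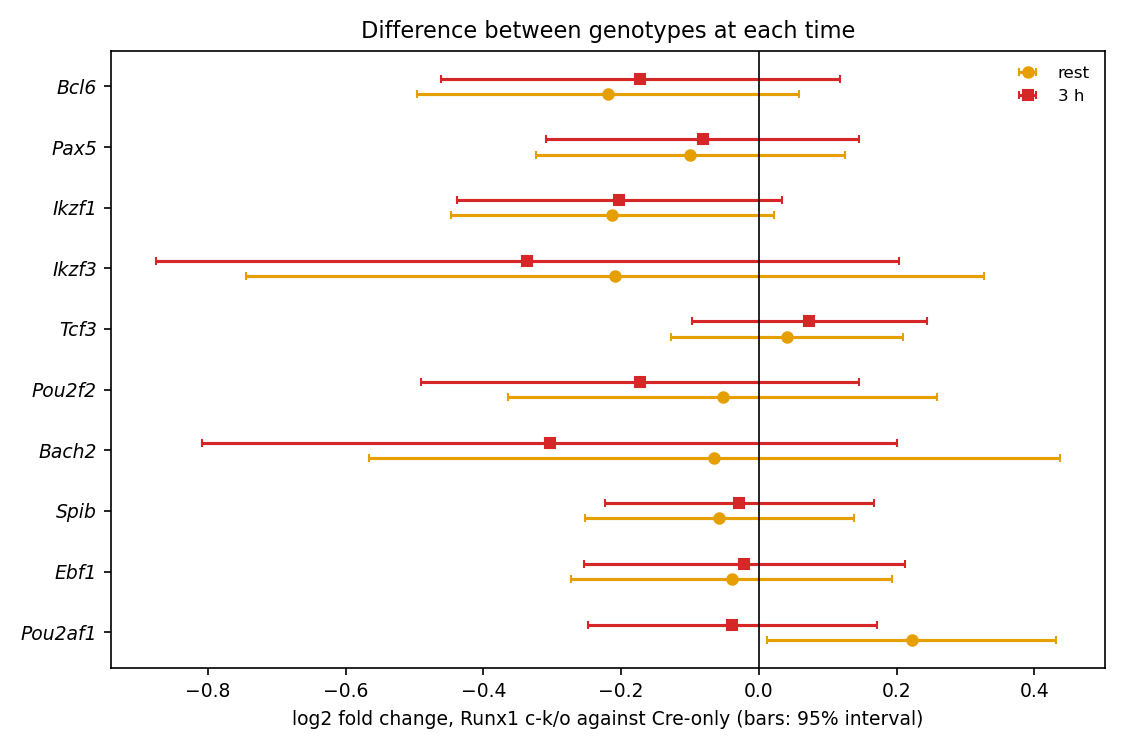
Log2 fold change of each factor between genotypes, Runx1 c-k/o minus Cre-only (horizontal axis), at rest (circles) and at 3 h (squares), with 95% intervals of the edgeR fit. All intervals include 0 apart from that of Pou2af1 at rest (0.01 to 0.43), and the widest belong to Ikzf3 and Bach2.

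Levels were compared between the factors per kb of exon, on the scale of normalized CPM per kb. In resting Cre-only cells the order was Pou2af1 (245.5 ± 4.68, SD, n = 3), Spib (226.6 ± 21.2), Pax5 (105.8 ± 1.33), Ikzf1 (97.8 ± 0.661), Ikzf3 (87.6 ± 1.63), Tcf3 (64.7 ± 2.19), Pou2f2 (49.1 ± 2.25), Bach2 (37.7 ± 2.35), Ebf1 (37.2 ± 2.04) and Bcl6 (18.8 ± 0.955). The samples of Pou2af1 and Spib overlapped, as did those of Bach2 and Ebf1, and other neighbours did not. Pou2af1 stood at the 98.7th percentile of tested genes and Bcl6 at the 77.2nd.

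After 3 h the same cells held Pou2af1 at 550.0 ± 21.1 and Spib at 129.9 ± 4.34 normalized CPM per kb, far above the rest. Ebf1 (30.8 ± 0.699), Ikzf1 (30.6 ± 0.0926), Ikzf3 (30.1 ± 2.03) and Pax5 (26.4 ± 1.74) followed, each overlapping the next. Ebf1 thus went from the ninth to the third place while its own level changed little. Tcf3 (22.3 ± 1.34), Pou2f2 (18.9 ± 1.48), Bach2 (18.1 ± 0.920) and Bcl6 (4.63 ± 0.309) were lowest, and Bcl6 stood at the 44.3rd percentile. With Runx1 c-k/o the ends of the order were alike. Pou2af1 was highest at 286.3 ± 22.3 and 535.6 ± 39.6 normalized CPM per kb, and Bcl6 lowest at 16.2 ± 1.45 and 4.12 ± 0.846.

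The genes around the factors were read from 4 lists, whose counts stand beside 38.6% higher and 36.4% lower of all tested genes in Cre-only cells, and 37.7% and 36.6% with Runx1 c-k/o. Of 24 measured family members and binding partners, 8 were higher and 11 lower after 3 h in Cre-only cells, and 9 and 9 with Runx1 c-k/o, with median log2 fold changes of 0.06 and -0.03. Spi1 (PU.1), the Ets relative of Spib, fell by 1.62 and 1.60 on the log2 scale, and Id3, an inhibitor of E2A proteins, fell by 1.34 and 1.05. Mafg, a small Maf partner of Bach2, rose by 2.19 and 2.11, and the histone deacetylase gene Hdac2 rose by 1.57 and 1.56. Tle5, of the Groucho family, fell by 1.44 and 1.60. No member of this list was called between genotypes or in the interaction by edgeR.

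Of 20 other B lineage transcription factors and cofactors, 5 were higher and 11 lower in Cre-only cells, and 5 and 12 with Runx1 c-k/o, with medians of -0.70 and -0.62. Ets1 (-2.77 and -2.73), Bcl11a (-2.47 and -2.37), Foxo1 (-2.06 and -2.01) and Fli1 (-1.89 and -1.99, all log2 fold changes) fell. With 1 factor of unwanted variation these falls were smaller but still called. Ets1 was then at -2.08 and -2.02, Bcl11a at -1.78 and -1.66, Foxo1 at -1.59 and -1.53, and Fli1 at -1.50 and -1.59. Irf4, which takes B cells toward activation and plasma cells, was higher by 0.36 (adjusted p = 0.00868) and 0.40 (adjusted p = 0.00462). With library totals as the only scaling its Cre-only value was 0.24 (adjusted p = 0.0691), and with at least 10 counts in every sample 0.20 (adjusted p = 0.101). With only the groups compared in the fit its Runx1 c-k/o value was 0.39 (adjusted p = 0.0510). Runx1 fell by 1.19 and 0.64, though with 1 factor of unwanted variation the latter was -0.10 (adjusted p = 0.500). It was the only gene of this list called between genotypes by edgeR, higher by 0.80 at 3 h in Runx1 c-k/o cells (adjusted p = 0.00769, and 0.0990 when only those groups were fitted).

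Of 18 B cell genes described as targets of these factors, 13 were lower and 3 higher in Cre-only cells, and 12 and 2 with Runx1 c-k/o, with medians of -0.99 and -1.24, beside 0.03 and 0.00 over all tested genes. Cd37, a tetraspanin (-2.59 and -2.66), Ms4a1, which encodes CD20 (-1.53 and -2.0), and Bank1, a scaffold of BCR signalling (-1.90 and -1.59), fell (log2 fold changes). Cr2, which encodes CD21, was among the genes that were higher. None of the 18 was called between genotypes or in the interaction by edgeR. The paper, with its own test, lists Cd22 as lower and Bank1 as higher in Runx1 c-k/o cells. The absence of a call here is thus not a finding of no difference.

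Of 14 measured plasma cell genes and genes that Bach2 or Bcl6 is known to repress, 4 were higher and 7 lower in Cre-only cells, and 6 and 6 with Runx1 c-k/o, with medians of -0.66 and -0.53. Prdm1 itself was low, at 14.3, 16.1 and 19.0 normalized CPM in resting and 7.16, 8.62 and 6.56 in 3-h Cre-only cells. The Runx1 c-k/o values were 12.9, 13.4 and 15.7, and then 4.96, 7.09 and 8.07. Prdm1 fell by 1.14 (adjusted p = 8.50e-05) and 1.06 (adjusted p = 0.000195) on the log2 scale. With 1 factor of unwanted variation the Runx1 c-k/o value was -0.55 (adjusted p = 0.0866).

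Within the same list Ccnd2, which encodes cyclin D2 and is a known Bcl6 target, rose by 2.83 and 2.90, and Xbp1, a plasma cell regulator, by 1.96 and 1.92. With 1 factor of unwanted variation the Xbp1 values were 1.30 and 1.25, both still called. Mzb1, a chaperone of antibody-secreting cells, fell by 2.51 and 2.47, and Sdc1 (CD138) by 2.17 and 1.05. Sdc1 was the only one called between genotypes by edgeR, at rest, with 17.9 ± 0.778 normalized CPM in Cre-only cells and 7.04 ± 1.69 in the c-k/o cells (SD, n = 3, log2 fold change -1.35, adjusted p = 0.00157). For Ccnd2 the paper reports more RNA in Runx1 c-k/o cells after stimulation, measured by quantitative PCR, which the call here did not show.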

How the data were processed

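The authors purified splenic B cells by negative selection, which removes non-B and CD43+ cells, added ERCC RNA (0 such entries are in the table) and made stranded poly(A)-selected libraries. They aligned paired reads to mm9 with TopHat2 2.0.11 and obtained a count per Ensembl gene by featureCounts. The table they deposited holds raw counts, 1 per gene and sample. The authors' own test used DESeq2 with RUV-seq factors.

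Here R 4.3.3 with edgeR 4.0.16 was used. All 12 samples were fitted together (filterByExpr with a minimum of 10 counts, TMM factors 0.886 to 1.07, 1 term per group, robust quasi-likelihood fit), and p-values were adjusted by Benjamini-Hochberg over 13538 genes with a threshold of 0.05. Normalized CPM are counts divided by the TMM-scaled library size. Exon lengths are from GENCODE for mm9. The models were also run on simulated data with the mean levels of resting Cre-only cells. Those data held no change with activation and no libraries set apart, so they do not test the fits in these respects. Alternatives included DESeq2 1.42.0, other scalings and filters, 1 RUVs factor, replicate blocks and each sample left out. Replicate numbers paired resting with 3-h Cre-only samples, by correlations of 0.275, 0.176 and 0.144 between deviations of same-numbered samples. In Runx1 c-k/o cells these correlations were -0.254, -0.264 and 0.254. The first 2 each involve a library set apart, so pairing could not be judged there. Between genotypes they lay between -0.066 and 0.068. The block within genotype changed the call of no factor but Ebf1. All factors are named, and of each list the 4 genes with the smallest adjusted p, plus Prdm1, Irf4, Id3 and Runx1, but 1 of these genes is not reported here. The factors and lists were chosen with earlier results of these data known.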

Additional observations from a re-analysis of the deposited data

How the results depend on the processing

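The number of factors called on activation stayed between 8 and 10 of 10 in each genotype over all alternatives (9 to 10 with a sample left out), and the interaction had 0 throughout. Between genotypes it was 0 in all alternatives other than the centred factor, which gave 4 at rest and 4 at 3 h (1734 and 3141 of all tested genes, beside 202 and 375 in the main analysis). Over all tested genes, 1 factor of unwanted variation gave 498 and 858, DESeq2 378 and 707, and leaving out both libraries set apart 598 and 914. With only the groups compared in the fit the 3-h count was 158, and with at least 10 counts in every sample 142 at rest, and with a sample left out counts ran from 81 to 140 at rest and from 180 to 617 at 3 h. In the interaction 11 genes became 155 with 1 factor, 167 with the centred factor, 79 with DESeq2, 187 without both libraries, 4 with the block within genotype and 4 to 31 with a sample left out. The plain replicate block gave 140 at rest, 275 at 3 h and 12 in the interaction, and changed the call of no factor but Ebf1 in Runx1 c-k/o cells (adjusted p = 0.0608). Library totals alone moved the median of all genes on activation to -0.10 and -0.11 (log2).

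Signs turned for the following log2 fold changes, none of which was called in the main analysis apart from Ebf1 and Bach2 on activation (-0.27 and -1.06 in Cre-only cells, and -0.25 for Ebf1 in c-k/o cells). With 1 factor of unwanted variation Ebf1 became 0.0348 at rest, 0.0698 at 3 h, 0.116 and 0.151 on activation in Cre-only and c-k/o cells, Pou2f2 0.0704 at rest, and Bach2 0.134 at rest and 0.0798 on activation in Cre-only cells. At 3 h, Ebf1 and Spib became 0.0146 and 0.00805 with at least 10 counts in every sample, Ebf1, Spib and Pou2af1 0.0186, 0.0147 and 0.0043 with DESeq2, and 0.0185, 0.0149 and 0.00436 with its size factors in edgeR. Without both libraries set apart Pax5, Ebf1, Ikzf3, Pou2f2 and Bach2 became 0.00695, 0.0452, 0.014, 0.0534 and 0.13 at rest, Ebf1 and Pou2f2 0.0958 and 0.0126 at 3 h, and Pax5 -0.103 in the interaction. The cause of these turns was not tested.

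With a sample left out, genotype differences at rest ran from -0.218 to 0.124 for Bach2, -0.0882 to 0.0401 for Ebf1, -0.335 to 0.00885 for Ikzf3, -0.158 to 0.00166 for Pax5, -0.111 to 0.048 for Pou2f2 and -0.111 to 0.0195 for Spib. At 3 h they ran from -0.080 to 0.0959 for Ebf1, -0.0635 to 0.0193 for Pou2af1, -0.274 to 0.015 for Pou2f2 and -0.0534 to 0.00041 for Spib. Interaction values ran from -0.428 to 0.0431 for Bach2, -0.112 to 0.221 for Bcl6, -0.061 to 0.148 for Ebf1, -0.0684 to 0.166 for Ikzf1, -0.345 to 0.159 for Ikzf3, -0.0832 to 0.0796 for Pax5, -0.222 to 0.0789 for Pou2f2, -0.048 to 0.0835 for Spib and -0.0107 to 0.092 for Tcf3. Ebf1 lost its activation call in 5 of the 6 fits of Cre-only cells and in 4 of the 6 of c-k/o cells. The lowest value of a factor was 22.1 normalized CPM, far above the floor of 3 counts. The SE of the genotype difference at rest was 0.25 for Ikzf3 and 0.23 for Bach2, and 0.06 and 0.07 without both libraries set apart.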

Other observations

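Because Pou2af1 and Pou2f2 moved apart, ratios of levels per kb of exon were taken within each library. They were taken for this pair and for others, chosen after their values were seen and so without a test. The ratio of Pou2af1 to Pou2f2 in Cre-only cells was 5.01 ± 0.321 at rest and 29.2 ± 1.16 at 3 h (SD, n = 3), and with Runx1 c-k/o 6.16 ± 1.36 and 33.3 ± 10.2. The c-k/o replicates had 5.33, 7.73 and 5.43 at rest and 44.9, 25.8 and 29.3 at 3 h, and the values 7.73 and 44.9 are those of the libraries set apart. The coactivator was thus in excess of its factor at both times, by the transcripts, and more so at 3 h. Spib to Spi1 went from 9.03 ± 0.848 to 16.0 ± 1.24 in Cre-only cells and from 7.70 ± 1.04 to 13.7 ± 1.58 with Runx1 c-k/o. Pax5 to Ebf1 went from 2.85 ± 0.124 to 0.858 ± 0.0722 and from 2.73 ± 0.0915 to 0.834 ± 0.152. Ebf1 transcript thus passed Pax5 at 3 h, except that the 2 were level in the 3-h library set apart, with a ratio of 0.997.

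The ratios of repressors to Prdm1 did not share 1 course. Pax5 to Prdm1 was 35.8 ± 4.77 at rest and 19.7 ± 2.92 at 3 h in Cre-only cells, and Bcl6 to Prdm1 6.34 ± 0.622 and 3.48 ± 0.690. Bach2 to Prdm1 was 12.8 ± 2.27 and 13.5 ± 2.01, with overlapping samples. Runx1 c-k/o samples gave 38.9 ± 5.73 and 21.5 ± 6.85 for Pax5, 6.37 ± 0.781 and 3.43 ± 0.580 for Bcl6, and 14.2 ± 3.95 and 11.8 ± 1.57 for Bach2. Prdm1 had as few as 77 counts in a 3-h library. Tcf3 to Id3 was 5.92 ± 0.454 and 5.22 ± 0.738 in Cre-only cells, and 5.52 ± 1.05 and 4.04 ± 0.684 with Runx1 c-k/o. Ikzf1 to Ikzf3 was 1.12 ± 0.0136 and 1.02 ± 0.0720, and 1.17 ± 0.310 and 1.19 ± 0.298 with Runx1 c-k/o, where the libraries set apart had 1.53 and 1.52 and the other replicates 0.956 to 1.08.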
